A study of Homo sapiens with 12 samples.

Results

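The HOX genes are the homeobox genes of the 4 clusters that human cells carry on separate chromosomes. They were taken as every row of the count table whose Ensembl identifier maps to a symbol of the form HOXA, HOXB, HOXC or HOXD followed by a number, which gave 39 genes of 60669 identifiers. The rule used gene names and no measured value, and it leaves out the antisense RNAs of the clusters. On hg38 the HOXA cluster lies on chromosome 7 (11 genes, minus strand), the HOXB cluster spans chr17:48528526-48729178 (10 genes, minus strand), the HOXC cluster chr12:53938765-54056030 (9 genes, plus strand) and the HOXD cluster chr2:176092891-176190907 (9 genes, plus strand).

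HOX genes encode homeodomain transcription factors that give cells their position along the head-to-tail axis and along the limbs. Genes at the same place in different clusters are paralogs and share a number, with low numbers used in anterior regions and high numbers in posterior ones. Adult fibroblasts keep a HOX pattern that marks the site the cells came from. Trithorax proteins such as the MLL methyltransferases keep active HOX genes on, Polycomb complexes keep the others silent, and PBX and MEIS proteins bind DNA together with HOX proteins. In human macrophages SP140, a chromatin reader of nuclear bodies, has been reported to occupy HOXA genes and to hold them silent.

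All libraries came from HT1080, an established human fibrosarcoma line, with a stable dCas9 that blocks transcription where its guide RNA brings it. There were 4 libraries of LTR8B cells treated with interferon beta (IFNB), 2 of GFP cells treated with IFNB, 4 of untreated LTR8B cells and 2 of untreated GFP cells. LTR8B cells (genotype dCas9_CRISPRi_LTR8B) carried a guide against the LTR8B element, an endogenous retroviral repeat that lies within SP140 in its first intron, and GFP cells (dCas9_CRISPRi_GFP) a control guide against GFP. IFNB was given at 10 U/mL for 4 h. Every library thus carried dCas9, a guide and the selection for both, and the labels do not say whether either line is 1 clone or a pool. The labels do not tell whether the replicates are separate cultures, and every p-value here therefore reflects no more than the variation among these libraries.

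Libraries held 12404270 to 28801579 counts, with LTR8B IFNB library 3 the shallowest. Levels are given in CPM, the TMM-scaled count per 1e+06 counts of the 16393 genes that passed the filter on low counts. SP140 ran at 0.901 to 1.48 CPM in LTR8B IFNB libraries against 29.8 to 32.0 CPM in GFP IFNB libraries, and at 0.515 to 1.84 CPM in untreated LTR8B libraries against 29.8 to 30.8 CPM in untreated GFP libraries, so the targeted gene went with the guide labels. IFIT1, an interferon-induced antiviral gene, ran at 2303 to 3016 CPM in the 6 IFNB libraries against 7.35 to 11.9 CPM in the 6 untreated libraries. Of 12 mesenchymal markers 11 passed that filter, with a summed level of 5185 to 6297 CPM per library, against 1 of 10 epithelial markers, whose sum was at most 1.88 CPM. Of 10 haematopoietic markers 5 passed (sum 24.1 to 34.4 CPM, mostly CD33) and of 6 endothelial markers 4 (sum 7.69 to 13.5 CPM, mostly PECAM1). COL1A1, ITGAX and CDH5, 1 mesenchymal, 1 haematopoietic and 1 endothelial marker, were lower in LTR8B cells over both treatments (log2 fold changes -0.64, -0.51 and -1.71, SE 0.16, 0.12 and 0.39, edgeR adjusted p = 0.0492, 0.0331 and 0.0269), and their part in the results on the guide was not tested. Of the 12 fits that left out 1 library, 12, 8 and 7 lost these calls (COL1A1, ITGAX and CDH5). In such bulk RNA, fewer cells that express a gene and less RNA per cell cannot be told apart.

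HT1080 cells expressed 26 of the 39 HOX genes, taking a mean of at least 1 CPM over the 12 libraries as expressed, against 13735 of all 60669 rows. The same 26 genes passed the filter on low counts. The HOXB cluster was the most active, with a summed mean level of 132 CPM over 8 expressed genes of 10, against 84.1 CPM for HOXA (7 of 11 expressed), 41.2 CPM for HOXC (7 of 9) and 26.1 CPM for HOXD (4 of 9). HOXB genes made up 43.8% to 48.1% of all HOX CPM in each library. By place in the cluster, 3 of 8 genes of the anterior paralog groups 1 to 3 were expressed, 13 of 15 of groups 4 to 8, and 10 of 16 of the posterior groups 9 to 13. HOX genes as a whole took 0.0259% to 0.0307% of a library's counts.

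**Figure D1:**
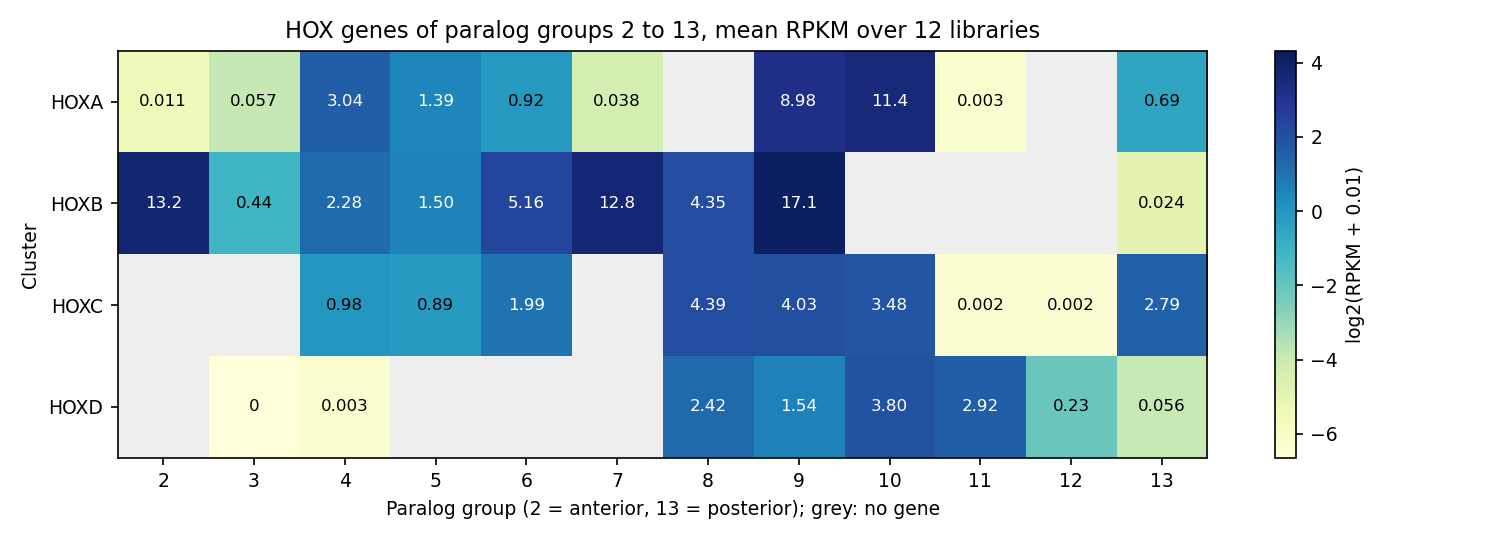
Mean level of the HOX genes of paralog groups 2 to 13 over the 12 libraries, in RPKM (CPM per kilobase of merged exons), with the clusters down the page and the paralog groups across it. Shading shows log2(RPKM + 0.01), and grey squares have no gene. HOXB9 (17.1), HOXB2 (13.2), HOXB7 (12.8) and HOXA10 (11.4) are the highest, and the low squares of HOXA7, HOXA11, HOXC11 and HOXC12 lie between expressed neighbours.

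Levels of different genes were compared per length, in RPKM over the merged exons of GENCODE 29. HOXB9, a trunk-patterning gene of the posterior HOXB end, had the highest mean level at 17.1 RPKM (15.5 to 19.4 RPKM over the 12 libraries). HOXB2, a hindbrain gene, followed at 13.2 RPKM (10.7 to 15.7 RPKM). HOXB7 stood at 12.8 RPKM, HOXA10 (pelvis, limb and uterus) at 11.4 RPKM, and HOXA9 at 8.98 RPKM. These 5 genes overlapped with their neighbours in the order when all 12 libraries were compared, but the lowest library of HOXA9, at 7.87 RPKM, lay above the highest library of HOXB6, the gene ranked 6, at 5.74 RPKM. Below this gap the levels of the expressed genes ran without a break to HOXB3 at 0.443 RPKM. HOXB3 has long alternative transcripts (7456 bases of merged exons), which lowers its level per length. Of the tested genes with a length, 17.1% had a mean RPKM above HOXB9 and 83.0% above HOXB3, and the median over all of them was 3.73 RPKM.

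The silent and near-silent genes did not form a single end of each cluster. In HOXA, HOXA2 (second pharyngeal arch) had 7 counts over all 12 libraries, HOXA3 63 and HOXA7 22. HOXA11, a forearm gene, had 2 counts in all, although it lies between HOXA10 at 42.2 CPM and HOXA13 (hands, feet and genital tract) at 3.49 CPM. In HOXB, the end genes HOXB1 (1 count) and HOXB13 (19 counts), a prostate and tail gene, were low on either side of 8 expressed genes. In HOXC, HOXC11 and HOXC12 had 2 counts each, between HOXC10 at 8.10 CPM and HOXC13 (hair and nails) at 6.76 CPM.

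The HOXD cluster was expressed in its middle alone. HOXD8, HOXD9, HOXD10 and HOXD11 had mean levels of 6.36, 2.88, 10.2 and 6.17 CPM. HOXD1 and HOXD3 had 0 counts in every library, HOXD4 had 1 count in 1 library, HOXD12 averaged 0.303 CPM and HOXD13, a digit gene, 0.126 CPM. Where a library shows 0 counts, up to 3 cannot be told from 0, which is 0.1005 to 0.244 CPM depending on the library and covers counting error only. In all, 9 of the 39 genes had no library above 3 counts: HOXA2, HOXA11, HOXB1, HOXB13, HOXC11, HOXC12, HOXD1, HOXD3 and HOXD4. Of these, HOXB13 had counts in 11 of the 12 libraries and was thus low and not silent.

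Values of several neighbours may share reads. Of the 39 genes, 20 shared under 1% of the 31-base words of their GENCODE 29 transcripts with any other gene on the same strand, and 11 shared more than 10%. HOXD3 and HOXD4 shared 61.9% and 78.2% of their words with AC009336.2, a gene that spans both and was not analysed here, so their counts are uncertain. HOXC5 shared 59.3%, mostly with a further identifier that GENCODE 29 also names HOXC5. Strand use in counting is not given in the sources used here, and 62.2% of the words of HOXA7 and 55.2% of those of HOXD1 lie in antisense transcripts.

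Genes on either side of an expression boundary are shown by the 250 bases before their start, from the RefSeq promoter table (GRCh38.p14). That table held 27 windows for 20 of the 39 genes. HOXA10 (chr7:27174321-27174570, minus strand) and HOXA11 (chr7:27185233-27185482, minus strand) are an expressed gene and its silent neighbour. HOXD8 (chr2:176129455-176129704, plus strand) and HOXD4 (chr2:176151300-176151549, plus strand) are the same across the HOXD boundary. The window of HOXC4 (chr12:54016638-54016887, plus strand) is also that of HOXC5 in this table. Capitals mark CpG pairs, of which these 5 windows hold 24, 11, 28, 4 and 14 in the order just given.
HOXA10: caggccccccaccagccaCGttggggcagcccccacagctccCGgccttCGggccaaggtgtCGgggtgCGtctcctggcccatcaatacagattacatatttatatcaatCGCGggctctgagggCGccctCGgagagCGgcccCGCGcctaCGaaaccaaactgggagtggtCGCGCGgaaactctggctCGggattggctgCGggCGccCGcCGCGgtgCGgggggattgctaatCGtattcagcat
HOXA11: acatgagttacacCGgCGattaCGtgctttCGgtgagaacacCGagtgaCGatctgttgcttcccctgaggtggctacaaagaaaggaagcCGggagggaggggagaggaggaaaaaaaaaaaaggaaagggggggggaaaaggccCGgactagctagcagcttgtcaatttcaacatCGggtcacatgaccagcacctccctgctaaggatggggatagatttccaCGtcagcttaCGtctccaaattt
HOXC4: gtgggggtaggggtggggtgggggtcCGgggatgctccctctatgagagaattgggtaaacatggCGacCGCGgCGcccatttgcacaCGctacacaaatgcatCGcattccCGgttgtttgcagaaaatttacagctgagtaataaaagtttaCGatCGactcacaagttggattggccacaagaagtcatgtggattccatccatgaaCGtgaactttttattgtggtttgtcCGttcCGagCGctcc
HOXD8: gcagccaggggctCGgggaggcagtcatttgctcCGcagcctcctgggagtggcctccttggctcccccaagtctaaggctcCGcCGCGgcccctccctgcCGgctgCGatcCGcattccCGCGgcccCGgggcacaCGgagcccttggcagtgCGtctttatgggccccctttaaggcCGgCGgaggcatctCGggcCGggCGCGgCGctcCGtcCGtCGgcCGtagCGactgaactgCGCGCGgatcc
HOXD4: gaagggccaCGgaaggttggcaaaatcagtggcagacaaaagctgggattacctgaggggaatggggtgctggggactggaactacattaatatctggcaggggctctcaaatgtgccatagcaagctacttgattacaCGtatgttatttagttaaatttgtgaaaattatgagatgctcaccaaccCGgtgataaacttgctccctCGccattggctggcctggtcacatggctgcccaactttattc

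Over windows of 300 bases (250 before to 50 after the start) the 11 windows of 10 tested HOX genes had a median of 25 CpG pairs, and the 16 windows of 10 untested HOX genes a median of 15, against 14 over all 35116 windows of the table. The untested set is not uniformly poor in CpG: HOXD1 and HOXD3, with 0 counts, have 36 and 25, and HOXA7 has 31. HOXA3 alone gave several of the untested windows, with 0 to 29 CpG pairs. As HOXC4 and HOXC5 share a window, the 11 tested windows hold 10 distinct ones. The core of the interferon-stimulated response element, spelled GAAA, any 2 bases and GAAA and searched on either strand, was in 0 of the 27 HOX windows and in 3.57% of all windows. The only HOXB gene with a window was HOXB1, so HOXB2, HOXB9 and the other expressed HOXB genes were not searched for any motif. TGATNNAT, a sequence bound by HOX and PBX together, was in 3 HOX windows (HOXA2, HOXB1 and HOXD11, 11.1%) and 7.40% of all. TATAAA was in 5 HOX windows (HOXA3, HOXA9, HOXA10 in both of its windows and HOXD13, 18.5%) and 11.5% of all. All 3 motifs were searched on both strands, none contains another, and a match describes the sequence alone.

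**Figure D2:**
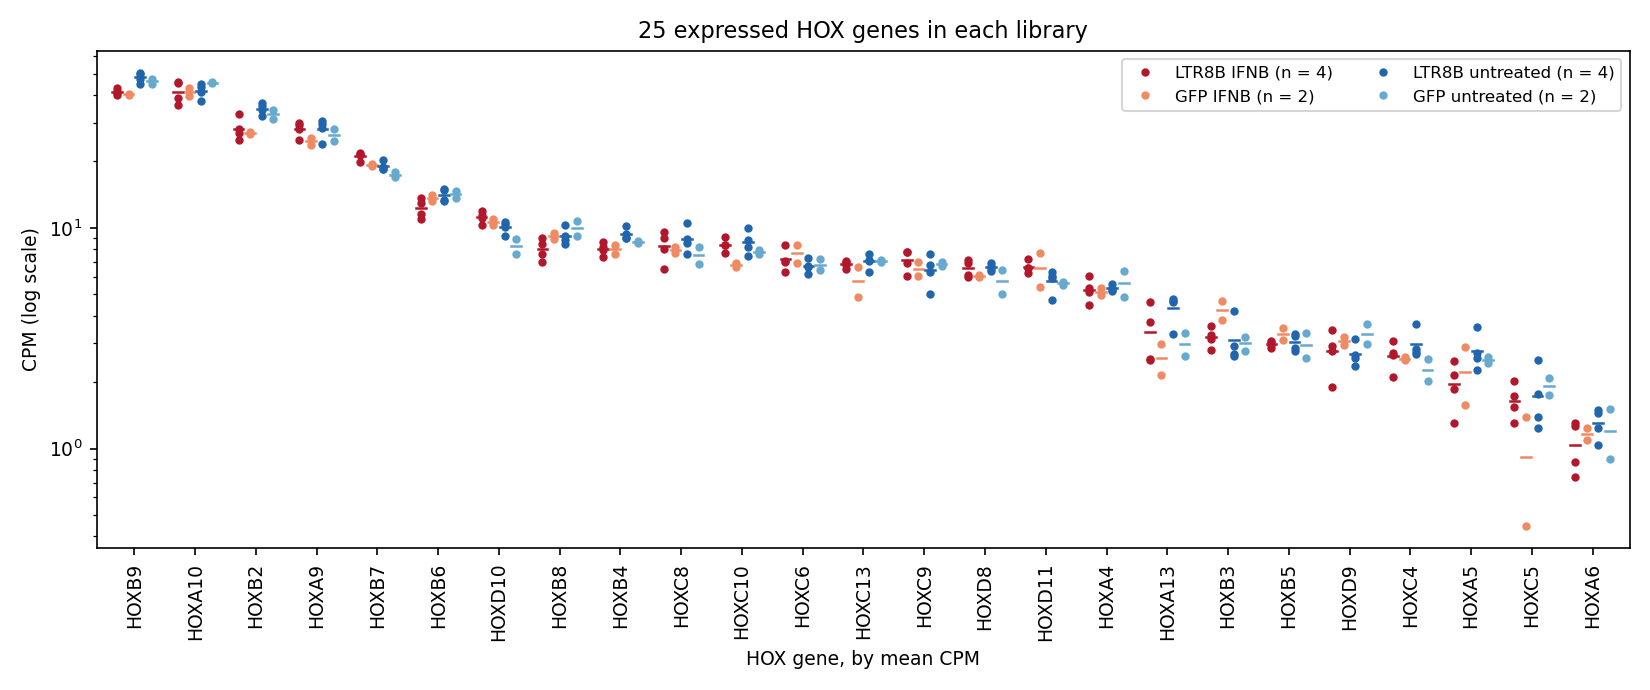
Level of 25 of the 26 expressed HOX genes in each of the 12 libraries, in CPM on a log scale, ordered by mean level. Points are libraries, short lines are group means, and the 4 groups are coloured as in the legend. The groups of most genes lie on top of each other, and HOXC5 in GFP IFNB library 2, at 0.448 CPM, is the lowest point of the plot.

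The first comparison asked whether HOX genes differ between cells in which the LTR8B guide had lowered SP140 and control cells. No HOX gene passed the test. Averaged over both treatments, 0 of 26 genes passed a threshold of 0.05 on the edgeR adjusted p, against 2.14% of all 16393 genes (351 genes). This p is adjusted over all tested genes. An unadjusted p under 0.05 was reached by 4 of the 26, against 15.8% of all genes. These were HOXA13, HOXB7, HOXC10 and HOXD10. The median log2 fold change of the 26 genes was 0.04, with 15 above 0 and 11 below. Over all genes it was 0.00, with 8262 above 0 and 8131 below. With IFNB 0 of 26 passed (0.354% of all genes) and in untreated cells 0 of 26 passed (0.36%). In each, 2 genes were under an unadjusted 0.05, against 9.48% of all genes with IFNB and 11.2% untreated. DESeq2 and limma-voom likewise called 0 of 26 in each of these 3 comparisons. In the average DESeq2 called 4.07% of the 14484 genes to which it gave an adjusted p.

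The intervals bound how large a guide effect could be. Averaged over treatments, the 95% interval of the log2 fold change lay within 1.5-fold either way for 24 of the 26 genes, and within 2-fold for all 26 (the 2 that reached past 1.5-fold being HOXC5 and HOXA13). HOXA10, the most abundant HOXA gene, differed by -0.06 on the log2 scale (95% interval -0.21 to 0.09), and HOXA9 by 0.14 (-0.02 to 0.30). HOXB9 differed by 0.05 (-0.06 to 0.16) and HOXB2 by 0.08 (-0.07 to 0.23).

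The silent and near-silent HOXA genes had 9 counts or fewer per library with either guide. HOXA11 had 0 counts in all 4 LTR8B IFNB libraries, 0 and 1 in the GFP IFNB libraries, 1, 0, 0 and 0 in the untreated LTR8B libraries and 0 and 0 in the untreated GFP libraries. HOXA7 had 5, 3, 2 and 2 counts in LTR8B IFNB libraries against 1 and 1 in GFP IFNB libraries. These groups were apart by 1 count (9.6% of all tested genes were higher without overlap in this comparison). HOXA7 had 2, 0, 3 and 0 counts in untreated LTR8B libraries against 0 and 3 in untreated GFP libraries, with overlap. No HOXA2 library had more than 3 counts and no HOXA3 library more than 9, and the groups of HOXA2, HOXA3 and HOXA11 overlapped in both treatments. Fitted without the filter on low counts, the 11 untested genes with any count had no unadjusted p under 0.05 in any comparison, and their smallest edgeR adjusted p for the averaged guide effect was 0.598, for HOXD13. In that fit the SE of the averaged guide effect was 0.48 for HOXA3, 0.86 for HOXA7 and 1.21 for HOXA2. At the counts of HOXA2 and HOXA11 a change of several fold was not detectable.

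HOXA13 had the smallest p for the averaged guide effect among HOX genes. It measured 2.55, 2.52, 3.74 and 4.61 CPM in LTR8B IFNB libraries against 2.15 and 2.98 CPM in GFP IFNB libraries, and 3.32, 4.74, 4.62 and 4.68 CPM in untreated LTR8B libraries against 3.33 and 2.64 CPM in untreated GFP libraries. The groups overlapped in both treatments, and the log2 fold change was 0.46, with a standard error (SE) of 0.18 and an edgeR adjusted p of 0.219. HOXB7, which patterns the trunk, measured 19.95, 21.4, 21.7 and 21.9 CPM in LTR8B IFNB libraries against 19.0 and 19.5 CPM in GFP IFNB libraries. It measured 20.4, 19.0, 18.4 and 18.4 CPM in untreated LTR8B libraries against 17.8 and 17.0 CPM in untreated GFP libraries. HOXB7 was the only HOX gene whose LTR8B libraries lay above all GFP libraries in both treatments (3.07% of all genes did so), with a log2 fold change of 0.14 (edgeR adjusted p = 0.288, SE 0.06).

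HOXC10 and HOXD10, both active in lumbar motor neurons and limbs, were the other genes under an unadjusted 0.05. HOXC10 measured 7.70, 8.36, 8.38 and 9.12 CPM in LTR8B IFNB libraries against 6.67 and 6.96 CPM in GFP IFNB libraries, which did not overlap (9.6% of all genes were higher without overlap in this comparison), and the log2 fold change with IFNB was 0.30 (edgeR adjusted p = 0.501, SE 0.13). HOXD10 measured 10.6, 10.5, 10.0 and 9.21 CPM in untreated LTR8B libraries against 8.92 and 7.63 CPM in untreated GFP libraries, again without overlap (10.2% of all genes), and the log2 fold change was 0.28 (edgeR adjusted p = 0.366, SE 0.11). With IFNB the 2 groups of HOXD10 overlapped. In untreated cells 4 of the 26 HOX genes were higher without overlap and 1, HOXA10, lower (1665 and 1547 of all 16393 genes). With IFNB 2 were higher and 2, HOXB3 and HOXB5, lower (1573 and 1546 of all genes).

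**Figure D3:**
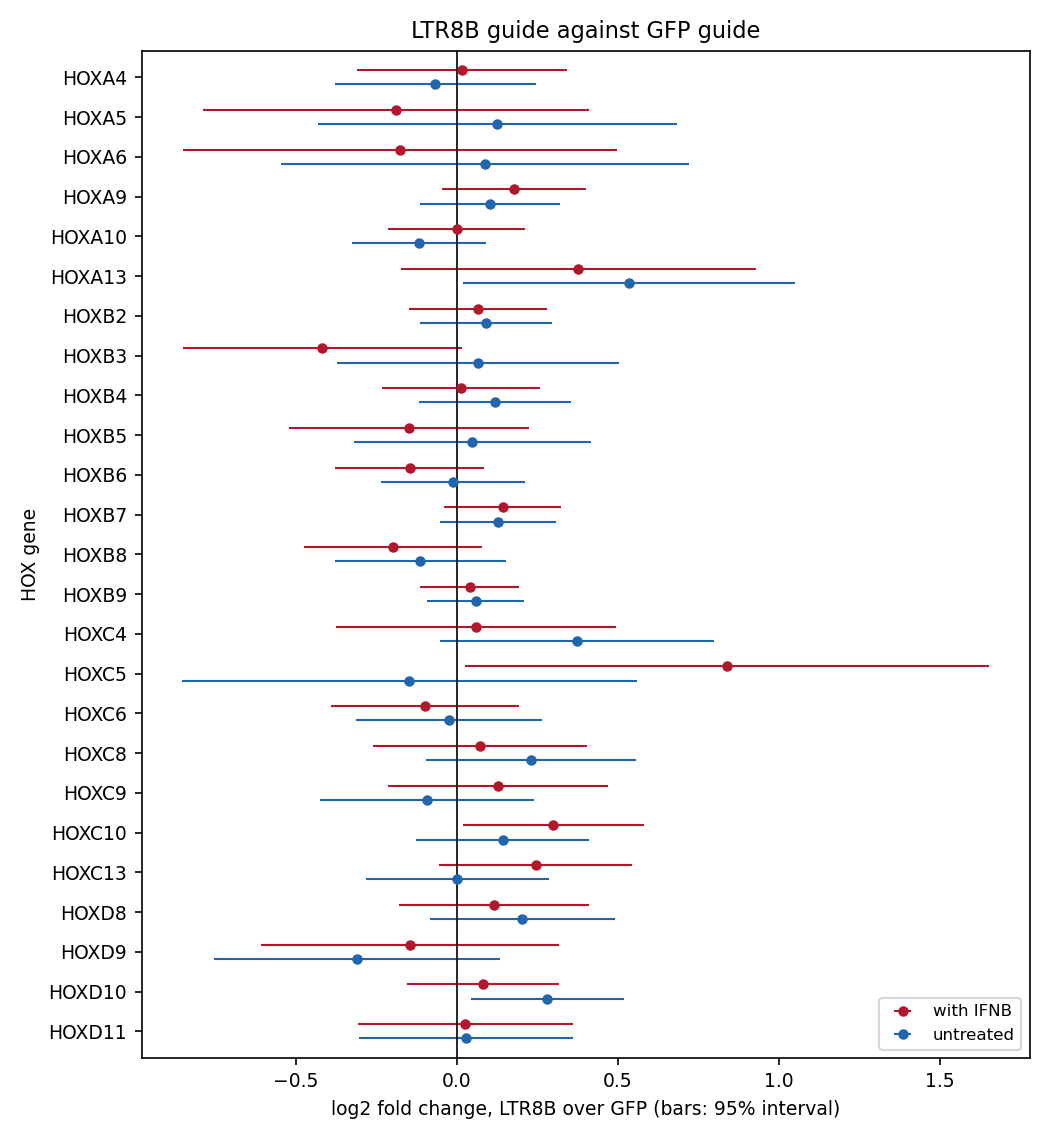
Log2 fold change of 25 of the 26 expressed HOX genes, LTR8B over GFP, with IFNB (upper point of each pair) and untreated (lower point), with 95% intervals from edgeR. Most intervals cross 0, and none of the 25 genes passed the adjusted threshold in either treatment. HOXC5 with IFNB has the widest interval.

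The second comparison asked whether HOX genes answer IFNB within 4 h. HOXB2 and HOXB9 fell in LTR8B cells, to 0.813 and 0.863 of their untreated levels, and no HOX gene passed the threshold as higher in either line. In LTR8B cells 2 of 26 genes passed, both lower, against 4.5% of all genes in either direction and 0.482% lower, and DESeq2 called the same 2 (5.0% of all genes). Here 6 genes had an unadjusted p under 0.05, against 12.9% of all genes. HOXA5, HOXB2, HOXB4, HOXB6 and HOXB9 were lower and HOXB7 was higher. In GFP cells 0 of 26 passed, against 3.2% of all genes, with 0 of 26 by DESeq2 (3.66% of all genes) and limma-voom. There, 4 genes had an unadjusted p under 0.05, against 11.3% of all genes. HOXB2, HOXB9 and HOXC5 were lower and HOXD10 was higher. The median log2 fold change of the 26 genes was -0.04 in LTR8B cells and -0.10 in GFP cells, against -0.01 for all genes in either line.

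HOXB2 measured 32.8, 25.03, 26.8 and 28.1 CPM in LTR8B IFNB libraries against 32.1, 34.2, 35.8 and 36.7 CPM in untreated LTR8B libraries. LTR8B IFNB library 1 was the high one and overlapped with the untreated libraries. In GFP cells HOXB2 measured 27.2 and 26.8 CPM with IFNB against 31.1 and 34.2 CPM untreated, without overlap (21.9% of all genes were lower without overlap in GFP cells). HOXB2 thus averaged 28.2 ± 3.33 CPM in LTR8B IFNB libraries and 34.7 ± 2.01 CPM in untreated LTR8B libraries (SD, n = 4 each). The log2 fold change was -0.30 in LTR8B cells (edgeR adjusted p = 0.0445, SE 0.08) and -0.27 in GFP cells (edgeR adjusted p = 0.346, SE 0.11).

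HOXB9 measured 42.9, 40.1, 41.0 and 41.7 CPM in LTR8B IFNB libraries against 47.1, 50.1, 45.0 and 50.04 CPM in untreated LTR8B libraries. In GFP cells it measured 40.5 and 40.1 CPM with IFNB against 44.9 and 47.3 CPM untreated. Within each line all IFNB libraries lay below all untreated ones, as they did for 1.48% of all genes. The log2 fold change was -0.21 in LTR8B cells (edgeR adjusted p = 0.0496, SE 0.06) and -0.19 in GFP cells (edgeR adjusted p = 0.367, SE 0.08).

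Both calls in LTR8B cells sit close to the threshold. The HOXB2 call was lost without untreated LTR8B library 2, 3 or 4 (edgeR adjusted p = 0.0612, 0.110 and 0.122) and without LTR8B IFNB library 2, 3 or 4 (0.183, 0.140 and 0.0902), with log2 fold changes of -0.24 to -0.31. The HOXB9 call was lost without untreated LTR8B library 1, 2 or 4 (edgeR adjusted p = 0.0848, 0.120 and 0.137) and without LTR8B IFNB library 1, 2, 3 or 4 (0.0785, 0.167, 0.128 and 0.0908), with log2 fold changes of -0.19 to -0.23.

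A contrast that averages the IFNB response over both lines was added after the data were seen. In it HOXB2 (-0.29, edgeR adjusted p = 0.0164, SE 0.07) and HOXB9 (-0.20, edgeR adjusted p = 0.0191, SE 0.05) were lower and were the 2 of 26 genes that passed, against 6.29% of all genes in either direction and 1.01% lower. These 2 calls held without any single LTR8B library. They were lost without untreated GFP library 2 (HOXB2 0.119, HOXB9 0.124), GFP IFNB library 1 (0.0518 and 0.0620) or GFP IFNB library 2 (0.0745 and 0.0850), all edgeR adjusted p.

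The other HOXB genes did not pass. HOXB4, used to expand blood stem cells, measured 7.91, 8.64, 7.40 and 8.16 CPM in LTR8B IFNB libraries against 9.36, 8.96, 10.2 and 8.999 CPM in untreated LTR8B libraries, and 7.58 and 8.40 CPM in GFP IFNB libraries against 8.58 and 8.76 CPM in untreated GFP libraries. HOXB4 and HOXB9 were the 2 HOX genes with no overlap in either line (1.48% of all genes were lower in this way), and the averaged log2 fold change of HOXB4 was -0.17 (edgeR adjusted p = 0.300, SE 0.08). HOXB7, beside HOXB9 in the cluster, was at 0.15 (edgeR adjusted p = 0.1899, SE 0.06), on the other side of 0. HOXB3 was at 0.25 and HOXB5 at 0.07, while HOXB6 and HOXB8 were at -0.13 and -0.16.

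By cluster, 7 of 7 HOXA genes, 5 of 8 HOXB genes, 4 of 7 HOXC genes and 1 of 4 HOXD genes had averaged IFNB fold changes below 0. The median log2 fold changes were -0.19, -0.14, -0.01 and 0.13 in that order, against -0.01 over all genes. Of all 16393 tested genes, 8896 lay below 0 in this average. The HOXA values below 0 were small or imprecise, from -0.05 for HOXA9 to -0.34 for HOXA5 (edgeR adjusted p = 0.414, SE 0.19), a gene of the lung and foregut. HOXD10 was the HOX gene next to the threshold, measuring 11.5, 11.9, 10.2 and 11.1 CPM in LTR8B IFNB libraries against 10.6, 10.5, 10.0 and 9.21 CPM in untreated LTR8B libraries, and 11.0 and 10.3 CPM in GFP IFNB libraries against 8.92 and 7.63 CPM in untreated GFP libraries. Its averaged log2 fold change was 0.26 (edgeR adjusted p = 0.0700, SE 0.08).

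Summed over all 39 genes, HOX RNA was 270 to 283 CPM in LTR8B IFNB libraries against 291 to 298 CPM in untreated LTR8B libraries. In GFP cells the sum was 266 to 273 CPM with IFNB against 282 to 289 CPM untreated. The ratio of the group means was 0.944 in each line, and within a line the 2 treatments did not overlap. Without HOXB2 and HOXB9 they did: the sum of the remaining HOX genes was 205.3 to 213.9 CPM in LTR8B IFNB libraries against 207.5 to 215.6 CPM in untreated LTR8B libraries, and 197.9 to 206.3 CPM in GFP IFNB libraries against 205.6 to 207.7 CPM in untreated GFP libraries. HOXB2 and HOXB9 were left out because they were called lower in these same libraries, so this sum describes the data and tests nothing. In LTR8B cells HOXB carried most of the difference, with 125 ± 3.59 CPM in LTR8B IFNB libraries and 141 ± 2.35 CPM in untreated LTR8B libraries (SD, n = 4 each), while the HOXD sum was 27.6 ± 1.32 CPM in LTR8B IFNB libraries and 25.5 ± 1.33 CPM in untreated LTR8B libraries (SD, n = 4 each). In GFP cells the HOXB sum was 125 ± 1.03 CPM with IFNB and 135 ± 5.51 CPM untreated (SD, n = 2 each). The HOXA sum there was 79.4 ± 6.32 CPM with IFNB and 86.8 ± 3.11 CPM untreated (SD, n = 2 each).

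**Figure D4:**
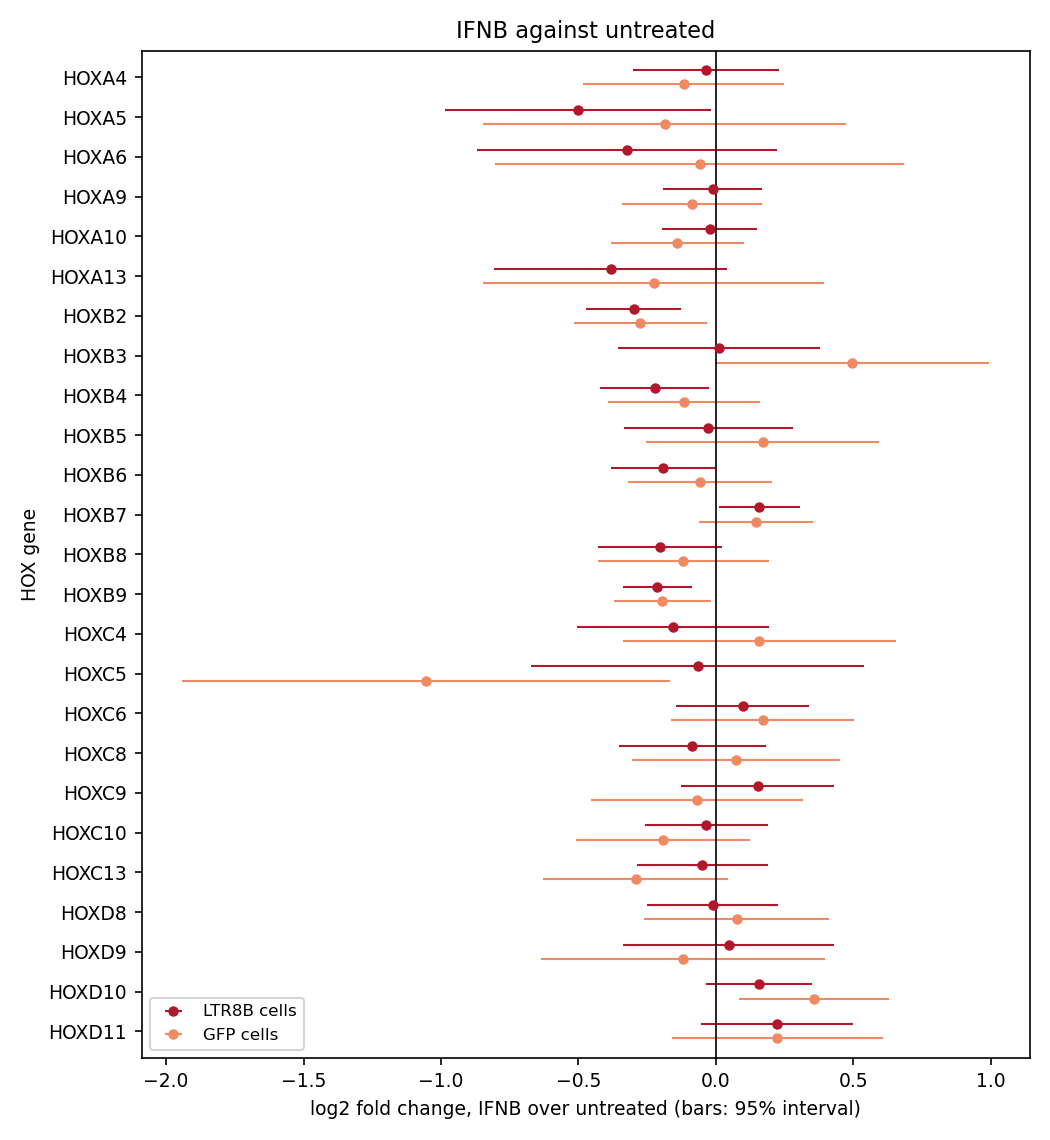
Log2 fold change of 25 of the 26 expressed HOX genes, IFNB over untreated, in LTR8B cells (upper point of each pair) and GFP cells (lower point), with 95% intervals from edgeR. HOXB2 and HOXB9 lie below 0 in both lines at -0.19 to -0.30, and HOXC5 in GFP cells has the widest interval.

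HOXC5 gave the fold change farthest from 0, in GFP cells, and its counts are divided between 2 identifiers. HOXC5 (ENSG00000172789.3) measured 1.383 and 0.448 CPM in GFP IFNB libraries against 2.08 and 1.74 CPM in untreated GFP libraries, a log2 fold change of -1.05 (edgeR adjusted p = 0.310, SE 0.42). In LTR8B cells it measured 1.73, 1.31, 1.55 and 2.01 CPM with IFNB against 1.24, 2.52, 1.77 and 1.39 CPM untreated. The further identifier that GENCODE 29 names HOXC5 (ENSG00000273046.1) had 0 and 0.696 CPM in the same GFP IFNB libraries, where HOXC5 was lowest, and 0 in both untreated GFP libraries. It had 0, 0.280, 0 and 0.371 CPM in LTR8B IFNB libraries and 0.645, 0, 0 and 0.669 CPM in untreated LTR8B libraries. Added together, the 2 identifiers gave 1.26 ± 0.169 CPM in GFP IFNB libraries and 1.91 ± 0.237 CPM in untreated GFP libraries (SD, n = 2 each), and the part of the division in the HOXC5 values was not tested. Without GFP IFNB library 1, HOXC5 alone passed in GFP cells at -2.08 (edgeR adjusted p = 0.0356), which rests on the 1 library at 0.448 CPM.

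The third comparison asked whether the LTR8B guide changes the IFNB response. For HOX genes 0 of 26 interaction terms passed, against 0.0% of all genes, with 0 of 26 by DESeq2 and limma-voom. An unadjusted p under 0.05 was reached by 0 of 26, against 2.98% of all genes. HOXB2 differed in its response between LTR8B and GFP cells by -0.02 on the log2 scale (95% interval -0.32 to 0.27), and HOXB9 by -0.02 (-0.23 to 0.20). That HOXB2 and HOXB9 passed in LTR8B cells and not in GFP cells is therefore no measured difference between the lines. Of the 26, HOXC5 lay farthest from 0, at 0.99 (-0.09 to 2.06, edgeR adjusted p = 0.996).

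Among the RNAs antisense to or between HOX genes, HOXC-AS2 rose with IFNB in both lines. Of 22 such noncoding RNAs on the list 19 had a row and 6 passed the filter on low counts, and HOXC-AS2 was the 1 that passed the test. It measured 2.19, 2.15, 2.85 and 1.80 CPM in LTR8B IFNB libraries against 0.461, 0.670, 0.234 and 0.257 CPM in untreated LTR8B libraries. In GFP cells it measured 2.48 and 1.99 CPM with IFNB against 0.416 and 0.283 CPM untreated. These values rest on 34 to 52 counts per IFNB library and 5 to 13 per untreated library. Within each line all IFNB libraries lay above all untreated ones, as they did for 842 of all 16393 genes. The log2 fold change was 2.48 in LTR8B cells (edgeR adjusted p = 1.86e-05, SE 0.30) and 2.64 in GFP cells (edgeR adjusted p = 0.000621, SE 0.42). The interaction was -0.16 (edgeR adjusted p = 0.996, SE 0.54), and the call held in every alternative run, at 2.25 to 2.96 in the single lines.

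HOXC-AS2 lies on the minus strand at chr12:53993810-53996785, across the start of HOXC9 at chr12:53994895-54003337 on the plus strand and within the span of HOXC6. Of the 31-base words of HOXC9, 6.32% lie antisense in HOXC-AS2. HOXC9 itself measured 6.07, 7.80, 7.81 and 6.94 CPM in LTR8B IFNB libraries against 5.03, 7.62, 6.30 and 6.79 CPM in untreated LTR8B libraries, with overlap, and its averaged log2 fold change was 0.04 (edgeR adjusted p = 0.897, SE 0.11). HOXC6 was at 0.13 (edgeR adjusted p = 0.551, SE 0.10). The remaining tested RNAs were HOTAIRM1, HOXA10-AS, HOXB-AS1, HOTAIR and HOXC-AS1, and none of the 5 passed in any comparison. HOTAIRM1, an RNA of the HOXA cluster, averaged 4.11 CPM and HOTAIR, an RNA of the HOXC cluster, 0.498 CPM.

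**Figure D5:**
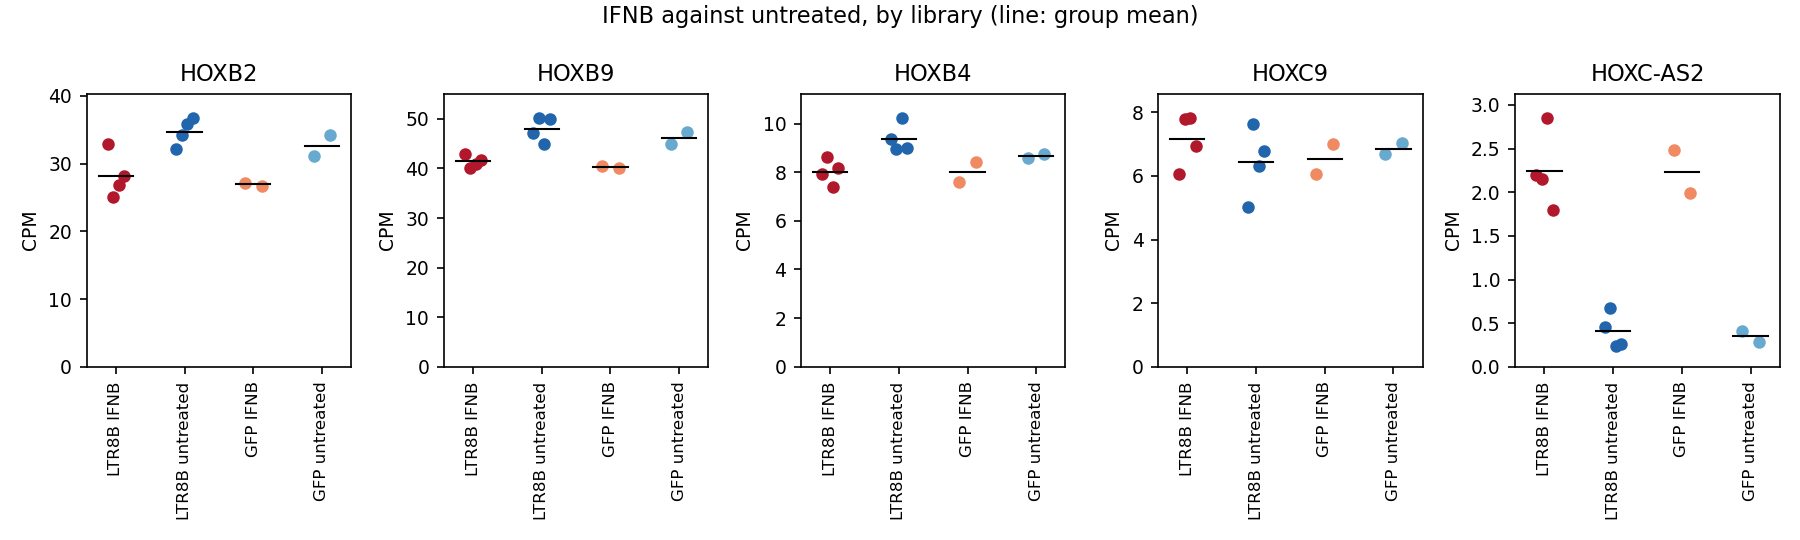
Level in CPM of HOXB2, HOXB9, HOXB4, HOXC9 and HOXC-AS2 in each library, with IFNB left of untreated within each line. Points are libraries and lines are group means. Within each line HOXB9 is lower in all IFNB libraries, and HOXC9 overlaps between treatments. HOXC-AS2 is at 1.80 to 2.85 CPM with IFNB against 0.234 to 0.670 CPM untreated.

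The partners and regulators of HOX proteins were mostly at similar levels in all groups. Of 9 HOX cofactors 7 passed the filter, led by PBX2 at 60.01 CPM, and MEIS2 was the 1 called gene, higher in LTR8B cells over both treatments (0.29, edgeR adjusted p = 0.0385, SE 0.07). MEIS2 averaged 17.9 ± 0.462 CPM in LTR8B IFNB libraries (SD, n = 4) against 15.1 ± 0.106 CPM in GFP IFNB libraries (SD, n = 2). The MEIS2 call was lost when any 1 library other than untreated LTR8B library 2 was left out (edgeR adjusted p = 0.0523 to 0.255). None of 7 cofactors was called with IFNB in either line. All 28 Polycomb genes passed the filter, none was called for the guide in any of the 3 guide comparisons, and PCGF5, a subunit of a variant Polycomb complex, rose with IFNB in LTR8B cells (0.55, edgeR adjusted p = 0.0135, SE 0.12) and in GFP cells (0.93, edgeR adjusted p = 0.00491, SE 0.17). The PCGF5 call was lost in LTR8B cells without LTR8B IFNB library 4 (edgeR adjusted p = 0.0527), and in GFP cells without GFP IFNB library 2 or either untreated GFP library (0.0555 to 0.0617). EZH2, the Polycomb methyltransferase, was at -0.04 for the averaged guide effect (SE 0.06) and -0.02 for the averaged IFNB response (SE 0.06).

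Of 19 MLL, Trithorax and H3K27 demethylase genes, all tested, MLLT3 was higher in LTR8B cells over both treatments (0.31, edgeR adjusted p = 0.0197, SE 0.07). With IFNB the methyltransferase genes KMT2B (-0.27, edgeR adjusted p = 0.0211, SE 0.07) and KMT2D (-0.23, edgeR adjusted p = 0.00502, SE 0.05) fell in LTR8B cells, and 0 of 19 were called in GFP cells, though no interaction passed. In the added average over both lines AFF1 was higher, and KMT2B and KDM6B, an H3K27 demethylase, were lower. The KMT2D call held without any single library. The others did not: that of MLLT3 was lost without GFP IFNB library 1 or either untreated GFP library (edgeR adjusted p = 0.0869 to 0.1099), and that of KMT2B in LTR8B cells without LTR8B IFNB library 1, 3 or 4 or untreated LTR8B library 2 (0.0539 to 0.0697). In the added average AFF1 lost its call without GFP IFNB library 2 or untreated GFP library 1 (edgeR adjusted p = 0.132 and 0.1504), KMT2B without GFP IFNB library 2 or untreated GFP library 2 (0.106 and 0.0892), and KDM6B without any 1 library other than LTR8B IFNB library 2 and untreated LTR8B libraries 1 and 2 (0.0510 to 0.183).

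Of 20 upstream regulators 11 were tested, and the retinoid receptors RARG (-0.38, edgeR adjusted p = 0.0107, SE 0.07) and RXRB (-0.19, edgeR adjusted p = 0.0460, SE 0.05) were lower in LTR8B cells over both treatments, while in the added average RXRA was lower with IFNB (-0.21, edgeR adjusted p = 0.0295, SE 0.06). The RARG call was lost without GFP IFNB library 1 or untreated GFP library 2 (edgeR adjusted p = 0.0739 and 0.0858), and the RXRB call without any 1 library other than untreated LTR8B library 2 (0.0643 to 0.179). The RXRA call was lost without any 1 GFP library, LTR8B IFNB library 1 or 3 or untreated LTR8B library 4 (edgeR adjusted p = 0.0544 to 0.134).

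Of 20 genes that flank the clusters 14 were tested. None was called for the guide or for IFNB within a line, and ATF7, beyond the HOXC cluster, was higher in the added average (0.18, edgeR adjusted p = 0.0494, SE 0.05), a call that was lost without any 1 library other than LTR8B IFNB library 1 (0.0508 to 0.211). Of 30 further factors that mark position in mesenchyme 17 were tested and none was called for the guide. SHOX2, a homeobox gene of limbs and heart, rose with IFNB by 1.12 on the log2 scale in LTR8B cells (edgeR adjusted p = 2.32e-08, SE 0.08) and by 1.23 in GFP cells (edgeR adjusted p = 1.03e-06, SE 0.12). SHOX2 measured 34.5, 38.8, 41.4 and 34.6 CPM in LTR8B IFNB libraries against 18.9, 15.5, 17.7 and 16.5 CPM in untreated LTR8B libraries, and 38.5 and 34.6 CPM in GFP IFNB libraries against 16.1 and 15.2 CPM in untreated GFP libraries. FOXC1 was called in GFP cells with IFNB (0.48, edgeR adjusted p = 0.0408, SE 0.12) and was at 0.19 in LTR8B cells (edgeR adjusted p = 0.361, SE 0.09), with no interaction called. The FOXC1 call was lost without any 1 of the 4 GFP libraries (edgeR adjusted p = 0.0708 to 0.458), while the SHOX2 calls held in every alternative run.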

How the data were processed

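Per the labels' protocols, polyA RNA was made into KAPA mRNA HyperPrep libraries with single or dual index adapters, and which library had which is not given there. The authors deposited a table of whole-number counts per gene and a second table, of signal, which equals the counts divided by 1 factor per library and was used only for that check. Per the submitters' processing notes the tools were Salmon 0.13.1 and DESeq2 1.38.3 with hg38, in roles not given in the sources used here.

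Symbols came from the supplied gene name table (60415 of 60669 identifiers matched), and positions and lengths from GENCODE 29 (all 39 HOX genes matched). Genes were kept by filterByExpr (minimum count 10, minimum total 15), scaled by TMM and fitted with edgeR 4.0.16 in R 4.3.3 in 1 robust quasi-likelihood model of the 4 groups, without covariates, over all 12 libraries. Adjusted p is Benjamini-Hochberg over all 16393 tested genes, with a threshold of 0.05, SE stands for the error of a log2 value, and intervals are at 95%. RPKM is CPM per kilobase of merged exons. The fit was tested on simulated data. DESeq2 1.42.0 and limma 3.58.1 (voom), other scalings, no filter, a replicate block and each library left out were tried as alternatives. Replicates differed by 2.74 to 17.4 times sampling noise (chi-square over degrees of freedom), so none was counted as a duplicate. Python 3.11.15 with pandas 2.3.3 and matplotlib 3.10.9 made summaries and figures.

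The genes, the lists (9 cofactors, 28 Polycomb, 19 Trithorax, 20 upstream, 22 noncoding, 20 flanking and 30 positional genes, and markers) and the rule that names the 39 HOX genes (1 is counted with the rest but not reported here), plus of each list up to 4 called genes and the 3 most abundant, were chosen with earlier results of these data known.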

Additional observations from a re-analysis of the deposited data

Results flagged for a closer look

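HOXA13 measured 3.32 CPM in untreated LTR8B library 1, the lowest of its group, whose other libraries ran from 4.62 to 4.74 CPM. HOXC4 measured 3.65 CPM in untreated LTR8B library 4, the highest of its group, whose other libraries ran from 2.67 to 2.83 CPM. In each case the gap to the nearest library took more of the group's range than Dixon's 95% critical value for 4 libraries (0.918 for HOXA13, 0.838 for HOXC4). Of 52 groups of 4 libraries screened, 2 stood out in this way, and chance gives about 1 in 20.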

How the results depend on the processing

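Over 110 alternative fits of the 7 comparisons, 2832 of 2860 HOX gene values kept their side of the threshold, 25 lost a call, 3 gained one and 0 reversed; 175 values with no call changed sign. The 2 HOX calls with IFNB in LTR8B cells became 1 with limma-voom and 1 with no low-count filter (HOXB2 each time), 0 in a fit of only the 2 groups compared, and 0 to 1 without 1 library. HOX calls with IFNB in GFP cells ran from 0 to 1 without 1 library, and those of the added average from 0 to 2. Counting as silent each gene with no library above 3 counts gave 9 genes in place of 2. That wider count takes in HOXB13, which had counts in 11 libraries.

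Within LTR8B cells, same-numbered libraries correlated weakly but above 0, at 0.0375 to 0.164, in their deviations from the group means. Same-numbered GFP libraries correlated at 0.0969, where 2 libraries per group fix the value for unlike numbers at the opposite sign. Across guides the correlations were -0.179 to -0.0259. The main fit did not model a pairing by replicate number. In LTR8B cells each library correlated best with its own number, except LTR8B IFNB library 3 and untreated LTR8B library 3. A replicate block shared by both lines left 0 HOX calls with IFNB in LTR8B cells (HOXB2 edgeR adjusted p = 0.0882, HOXB9 0.0578). With a block within each line instead, the HOXB2 and HOXB9 calls in LTR8B cells held. With the block within each line HOXD10 passed in the added average (0.26, edgeR adjusted p = 0.0333). Of the list genes and markers named, the shared block also ended calls for the averaged guide effect. These were MEIS2, MLLT3, RARG, RXRB, COL1A1 and CDH5 (edgeR adjusted p = 0.168, 0.102, 0.0979, 0.217, 0.212 and 0.163). The shared block also ended the calls of KDM6B and ATF7 in the added average (edgeR adjusted p = 0.0714 and 0.0703).

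The 2 libraries per GFP group and the low counts of 13 untested genes set the limits. Under each scaling the median log2 fold change of all genes lay between -0.06 and 0.01.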
